A study of Homo sapiens with 6 samples.

Results

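Interferon-stimulated genes were described here as a list of 44 named genes, of which 42 had a probeset annotated to a single gene symbol on the array. These 42 were 42 of 18404 genes so represented, and a gene with several such probesets was taken at the brightest, which concerned GBP2 alone. GBP1 appeared only on a probeset shared with other genes, and STAT2 was not analysed here. RNA had been hybridised to Affymetrix arrays from 2 groups of 3 samples. The first group was the parental HEK293 Flp-In line, called wild-type in the labels. HEK293 is an established line of human embryonic kidney origin, transformed with adenovirus DNA, and Flp-In cells carry a single site for inserting a transgene. The second was a HEK293 Flp-In line in which FLAG-HA-tagged TRIM71 is expressed constitutively. TRIM71 belongs to the TRIM-NHL proteins and binds RNA. Both lines grew in the same serum-containing medium, and hygromycin B is given in the labels only for maintaining the TRIM71 line, so transgene, drug and other differences between the lines cannot be told apart. Neither an interferon treatment nor an infection is named in the labels, and no clone number is given for the TRIM71 line.

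Interferons are secreted proteins that cells release when they sense foreign nucleic acid. Type I and type III interferons bind receptors whose JAK kinases phosphorylate STAT proteins, which join IRF9 and bind the interferon-stimulated response element (ISRE) in target promoters. Interferon gamma acts mainly through the gamma-activated site (GAS). The genes switched on this way degrade foreign RNA, block viral entry and replication, attach ISG15 to proteins and feed peptides to MHC class I. Many are also transcribed at a low level without added interferon.

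The letters of these elements were looked up in the RefSeq promoter table of build GRCh38.p14, which gives 300 bases per listed transcript start, 250 before it and 50 after it. Of the 42 measured genes 33 had an entry, with 43 promoters between them. IRF7, GBP2, OAS2, IFITM2, OASL, IFIT2, MX2, USP18 and TRIM22 had none. The ISRE core was searched as GAAA, any 2 bases and GAAA on both strands, counting overlapping matches, and was present for 25 of the 33 genes (75.8%) against 4.38% of the 27305 genes in the table. Counted by promoter, it was in 67.4% of the 43 and in 3.57% of all 35116. The GAS core, TTCNNNGAA, was present for 11 of the 33 (33.3%) against 9.38% of all genes in the table. A match is a run of letters and was not tested as a binding site.

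The promoters below belong to the 4 genes of the list that changed by over 1.5-fold between the lines, and show the 250 bases before the start from 5′ to 3′ with ISRE matches in capitals. SAMD9 lies on the minus strand (chr7:93117980-93118229), IFITM3 on the minus strand (chr11:320861-321110), OAS3 on the plus strand (chr12:112938224-112938473) and IFI44L on the plus strand (chr1:78620198-78620447).
SAMD9: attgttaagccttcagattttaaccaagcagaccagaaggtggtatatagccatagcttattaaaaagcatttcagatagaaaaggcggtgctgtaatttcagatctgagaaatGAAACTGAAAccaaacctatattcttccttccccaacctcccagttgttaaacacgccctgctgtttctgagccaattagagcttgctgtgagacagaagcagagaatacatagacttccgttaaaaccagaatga
IFITM3: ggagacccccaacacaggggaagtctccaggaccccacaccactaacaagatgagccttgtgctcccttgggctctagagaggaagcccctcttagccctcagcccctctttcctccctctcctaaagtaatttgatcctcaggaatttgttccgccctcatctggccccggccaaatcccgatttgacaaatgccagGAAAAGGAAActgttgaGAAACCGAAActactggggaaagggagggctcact
OAS3: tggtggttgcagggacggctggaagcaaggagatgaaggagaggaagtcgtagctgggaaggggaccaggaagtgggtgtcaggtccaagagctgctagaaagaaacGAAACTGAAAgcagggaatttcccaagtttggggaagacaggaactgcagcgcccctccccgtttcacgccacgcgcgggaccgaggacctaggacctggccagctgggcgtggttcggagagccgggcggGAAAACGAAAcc
IFI44L: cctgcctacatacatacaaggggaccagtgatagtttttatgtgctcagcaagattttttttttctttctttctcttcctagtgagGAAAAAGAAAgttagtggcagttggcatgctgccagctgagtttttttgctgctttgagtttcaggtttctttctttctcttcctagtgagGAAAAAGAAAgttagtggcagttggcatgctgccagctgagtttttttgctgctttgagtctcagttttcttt
SAMD9 held 1 match, 136 bases upstream. IFITM3 held 2, at 52 and 35 bases, and OAS3 held 2, at 143 and 12 bases. In IFI44L the 2 matches, at 164 and 73 bases, lay in a direct repeat: a stretch of 85 bases recurred exactly with its copies 91 bases apart.

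Shorter windows are shown for 3 further genes that rose and for ISG15, which did not pass the test although its promoter held the element. IFIT1 (chr10:89392492-89392544, plus strand) and HERC5 (chr4:88456979-88457069, plus strand) carried the core on the reverse strand, so that the capitals read TTTC, any 2 bases and TTTC. IFI6 (chr1:27672261-27672363, minus strand) and ISG15 (chr1:1013369-1013414, plus strand) carried it on the forward strand.
IFIT1: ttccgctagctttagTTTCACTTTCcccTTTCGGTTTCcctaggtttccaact
HERC5: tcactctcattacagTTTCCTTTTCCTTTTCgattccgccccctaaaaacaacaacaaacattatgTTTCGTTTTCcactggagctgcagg
IFI6: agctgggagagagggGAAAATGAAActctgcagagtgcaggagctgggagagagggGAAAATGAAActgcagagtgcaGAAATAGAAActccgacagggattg
ISG15: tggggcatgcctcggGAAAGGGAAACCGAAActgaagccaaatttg
IFI6 held 3 matches, the first pair inside a repeat of 29 bases with copies 41 bases apart. In HERC5 a pair of overlapping matches began 125 bases upstream and another lay at 74 bases, while the neighbouring paralogue HERC6 had no match in its window. PARP9 and DTX3L, which are transcribed away from each other, shared 1 and the same match (chr3:122564332-122564341), 41 bases upstream of the PARP9 start and beginning 6 bases upstream of the DTX3L start.

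These letters occurred both in genes that changed and in genes that did not pass. ISRE matches were found for 5 of 7 risen genes with an entry, for 2 of 2 fallen genes and for 18 of 24 that did not pass. SAMD9L and IFI35, both of which rose, had no ISRE match in the window, and IFI35 had a GAS match 22 bases upstream. The groups are too small for these shares to be set against each other.

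The arrays themselves were alike in level, with medians between 6.90 and 6.97 on the log2 scale and correlations over all probesets of 0.996 to 0.997 within groups and 0.991 to 0.994 between them. TRIM71 mRNA stood at 10.74 ± 0.11 in the TRIM71 line and 7.40 ± 0.16 in the parental line (SD, n = 3), which matched the labels. Of 8 markers of HEK293 cells 7 were above the median brightness of all probesets, 6.94. Their summed linear level was lower in the TRIM71 line, 9979 to 10240 against 13865 to 14055 on parental arrays, where NEFL (−1.45), INA (−0.62) and KRT8 (−0.22) fell and VIM (0.40) and LHX1 (0.30) rose. Of 14 leukocyte markers 12 lay below that median and 0 passed the limma test or had an unadjusted p under 0.05, and their summed linear level ranged from 829 to 904 on parental arrays and from 837 to 885 on TRIM71 arrays. Summed endothelial markers ran from 271 to 299 against 320 to 363, where 1 of 6, KDR, rose and 5, KDR among them, were below the median. Summed fibroblast markers ran from 572 to 622 against 578 to 627, where 1 of 8, PDGFRA, rose. The part of these markers in the results below was not tested. In a bulk sample, fewer cells of a kind and less RNA per cell cannot be told apart. Nothing in the labels says that replicates were separate cultures, so the spread behind the p-values is that of these samples and may be technical.

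Of the 42 genes, 8 rose in the TRIM71 line, 3 fell and 31 did not pass at a Benjamini-Hochberg adjusted p under 0.05 in the limma fit across all probesets. The 11 calls made up 26.2% of the 42, beside 22.2% of all 18404 genes. Split by direction, 19.0% of the 42 rose against 10.0% of all genes, and 7.14% fell against 12.2%. The risen genes were SAMD9, IFITM3, IFIT1, IFI35, IFI6, IFITM2, HERC5 and SAMD9L, and the fallen genes IFI44L, OAS3 and USP18. By at least 1.5-fold 2 rose (1.26% of all genes did) and 2 fell (2.71%).

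The middle of the list lay at that of all genes: its median log2 fold change (TRIM71 line over parental line) was −0.01, as was the median of all genes, with 20 genes higher and 22 lower. Median absolute log2 fold changes were 0.13 for the list and 0.11 for all genes. The 3 TRIM71 arrays lay wholly to one side of the 3 parental arrays for 21 of the 42 genes (50.0%), beside 43.6% of all genes, 12 of them higher and 9 lower. The first count depends on the size of change asked for. When the change was tested against a fold of 1.2 instead of against no change, 2 rose (SAMD9 and IFITM3) and 2 fell (OAS3 and IFI44L). Of all 18404 genes 232 rose and 471 fell in that test.

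**Figure D1:**
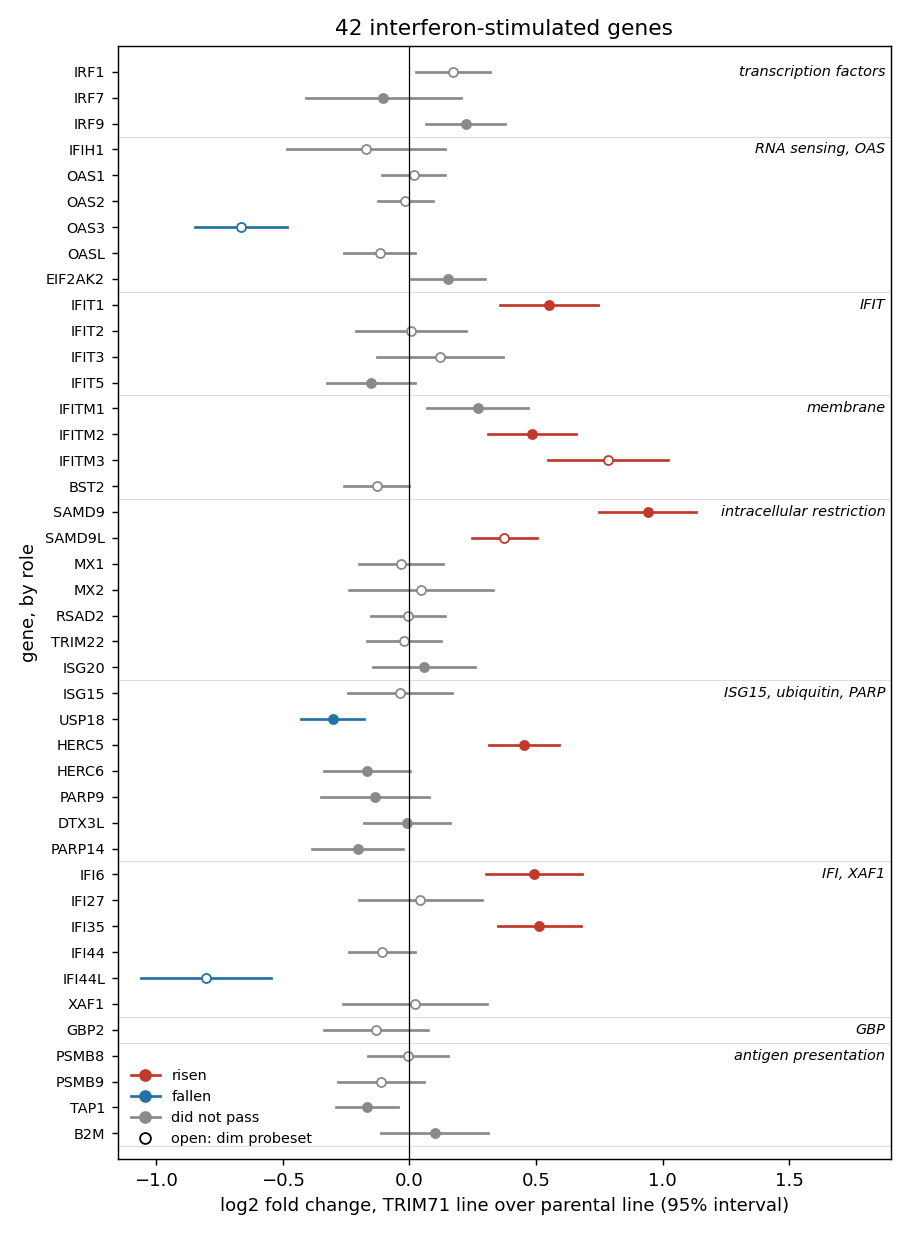
Log2 fold change of each of the 42 genes, TRIM71 line over parental line, with its 95% interval from the limma fit, ordered by role on the vertical axis; red genes rose, blue genes fell, grey genes did not pass, and open symbols are probesets below the median brightness in both groups. Points run from −0.80 for IFI44L to 0.94 for SAMD9, and 31 of 42 are grey.

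Many of the genes were dim. In 23 of the 42 (54.8%) both group means lay below the median of all probesets, as they did in 38.4% of all genes, and for a dim probeset the log2 scale understates a change. Of the 19 brighter genes 6 rose and 1 fell, and of the 23 dim genes 2 rose (IFITM3 and SAMD9L) and 2 fell (OAS3 and IFI44L). Among all genes 31.6% of the brighter and 7.21% of the dim ones were called. SDs within a group ran from 0.02 to 0.23 over the 42 genes. For the 31 genes that did not pass, the 95% intervals stayed between −0.48 and 0.47, so that all 31 intervals lay inside a 1.5-fold change either way.

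**Figure D2:**
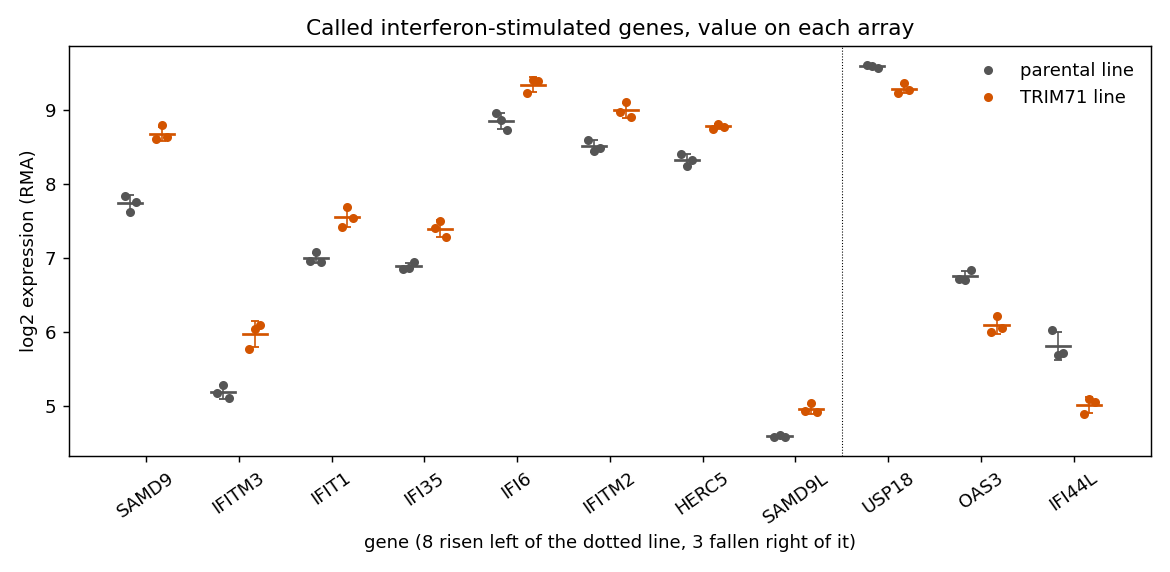
Log2 expression on each array (points) with group mean and SD (bars, n = 3) for the 11 genes that passed the test, parental line in grey and TRIM71 line in orange; brightness is not comparable between genes. In all 11 genes the points of the groups are separate, with the widest gap for SAMD9 and the narrowest for USP18.

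Transcription factors that carry the interferon signal did not pass. IRF9, the DNA-binding partner of the STATs, read 6.91, 6.73 and 6.84 in the parental line and 7.12, 6.99 and 7.04 in the TRIM71 line. These groups did not overlap, but the difference of 0.22 (SE 0.06) missed the threshold (adjusted p = 0.065) and passed it in 5 of 20 alternative settings. IRF1, a factor induced by interferon gamma, differed by 0.17 (adjusted p = 0.111) at a dim probeset. IRF7, which amplifies type I interferon production, overlapped between groups and differed by −0.10 (95% interval −0.41 to 0.20).

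Of the 6 genes of the list that sense foreign RNA or belong to the OAS family, OAS3 was the 1 called. Oligoadenylate synthetases make a short nucleotide messenger on double-stranded RNA that switches on RNase L. OAS3 gave 6.72, 6.70 and 6.84 on parental arrays and 6.0, 6.22 and 6.05 on TRIM71 arrays. All TRIM71 arrays were lower, by 0.66 on average (log2 fold change −0.66, SE 0.07, adjusted p = 0.0028), a 1.58-fold fall at a probeset just under the median brightness. Its neighbours OAS1 (0.02, adjusted p = 0.878, with the sign turned by quantile normalization) and OAS2 (−0.01, adjusted p = 0.877) overlapped between groups. The related OASL differed by −0.12 (adjusted p = 0.243). OAS1, OAS2 and OASL were dim. EIF2AK2, the kinase PKR that halts translation on double-stranded RNA, differed by 0.15 (adjusted p = 0.148). The RNA sensor IFIH1, also called MDA5, differed by −0.17 (adjusted p = 0.457) at a dim probeset. Both lie on chromosome 2, where the median of 1154 genes was 0.08 higher in the TRIM71 line.

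IFIT proteins bind foreign RNA ends and hold back its translation. IFIT1 measured 6.96, 7.08 and 6.95 in the parental line against 7.42, 7.69 and 7.54 in the TRIM71 line. It rose 1.46-fold (log2 fold change 0.55, SE 0.08, adjusted p = 0.0067), with every TRIM71 array above every parental one. The other family members on chromosome 10 did not pass. IFIT3 differed by 0.12 and IFIT2 by 0.01, the latter with its sign turned by quantile normalization, both at dim probesets with overlapping groups. IFIT5 differed by −0.15 (adjusted p = 0.228).

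Of the membrane proteins, IFITM2 and IFITM3, which trap entering viruses at endosomal membranes, rose. IFITM3 read 5.17, 5.28 and 5.10 in the parental line and 5.77, 6.04 and 6.10 in the TRIM71 line. That was a 1.72-fold rise (0.78, SE 0.10, adjusted p = 0.0041) at a dim probeset, without overlap. IFITM2 stood at 8.60, 8.45 and 8.50 against 8.97, 9.12 and 8.91, again without overlap and 1.40-fold higher (0.48, SE 0.07, adjusted p = 0.0072). IFITM1, which acts at the cell surface, was at 8.55, 8.72 and 8.48 against 8.75, 8.94 and 8.87. Its groups did not overlap, and the difference of 0.27 (SE 0.08) gave an adjusted p of 0.076, which fell under the threshold in 6 of 20 alternative settings. The 3 genes are close paralogues, so probes may share signal between them and the identity of each change is uncertain. BST2, or tetherin, which holds budding virus at the membrane, differed by −0.13 (adjusted p = 0.168) at a dim probeset.

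SAMD9, a cytosolic restriction factor of poxviruses and a brake on cell growth, showed the largest rise of the list. Parental arrays gave 7.84, 7.62 and 7.76 and TRIM71 arrays 8.61, 8.80 and 8.64. SAMD9 was 1.92-fold higher (0.94, SE 0.08, adjusted p = 0.0011) and its groups lay far apart. Its adjacent paralogue SAMD9L went from 4.57, 4.60 and 4.58 to 4.93, 5.04 and 4.91. That rise of 1.30-fold (0.38, SE 0.05, adjusted p = 0.0060) was at one of the dimmer probesets, and signal shared with SAMD9 was not tested. Both group means of SAMD9L lay below 5.813, the 95th percentile of 350 olfactory receptor probesets, taken as a low-signal level.

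The region around SAMD9 and SAMD9L on chromosome 7 held other genes that rose. Of 9 neighbours of SAMD9 outside the list, counting 5 measured genes to each side, 3 rose, beside 10.0% of all genes. The median log2 fold change of the 9 was 0.18. The risen neighbours were the cell cycle kinase CDK6 (0.61, adjusted p = 0.00091), the protease inhibitor TFPI2 (0.61, adjusted p = 0.0068) and ANKIB1 (0.30, adjusted p = 0.0069), named after their values were seen. HEPACAM2 (−0.08), VPS50 (0.31, adjusted p = 0.058) and CALCR (−0.14), which lie between SAMD9L and TFPI2, did not pass. In the window centred on SAMD9L 2 of 9 rose, with a median of 0.01. Around PARP9 and DTX3L, adjacent genes with overlapping windows, 3 of 8 neighbours rose (medians 0.10 and 0.11), while these 2 genes did not pass. No other gene of the list had a higher neighbour median than SAMD9. Chromosome 7 as a whole had a median of 0.01 over 833 genes, and the part of position in the rise of SAMD9 was not tested.

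Other intracellular restriction factors were dim or overlapped between groups. MX1 and MX2, dynamin-like GTPases that block viral nucleoproteins and capsids, differed by −0.03 and 0.05. RSAD2, or viperin, which makes a chain-terminating nucleotide, differed by −0.0049 (95% interval −0.15 to 0.14), and TRIM22, a ubiquitin ligase of the TRIM family, by −0.02. ISG20, an exonuclease, was brighter and differed by 0.06 (adjusted p = 0.708).

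HERC5 and USP18 went in opposite directions. ISG15 is a ubiquitin-like protein that HERC5 attaches to newly made proteins and USP18 removes. HERC5 was at 8.41, 8.25 and 8.33 in the parental line and 8.75, 8.82 and 8.78 in the TRIM71 line. It rose 1.37-fold (0.45, SE 0.06, adjusted p = 0.0042). USP18, which also dampens signalling at the type I receptor, went from 9.62, 9.59 and 9.58 to 9.24, 9.37 and 9.28. This was a 1.23-fold fall (−0.30, SE 0.05, adjusted p = 0.011) without overlap. A probeset annotated to both USP18 and its near-identical copy USP41P differed by −0.17 (adjusted p = 0.052), so the fall of USP18 rests on 1 probeset and the copy may add signal.

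ISG15 itself gave 6.43, 6.35 and 6.41 against 6.31, 6.23 and 6.54. Its groups overlapped (−0.04, 95% interval −0.24 to 0.17, adjusted p = 0.837) at a dim probeset. HERC6, the neighbour of HERC5, differed by −0.17 (adjusted p = 0.180). The ADP-ribosyltransferases PARP9 (−0.13) and PARP14 (−0.20) and the ubiquitin ligase DTX3L (−0.01), partner of PARP9, overlapped between groups. All 3 lie together on chromosome 3, where 8 neighbours outside the list had medians of 0.10 to 0.12.

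In the IFI group, IFI6, an interferon-induced protein of mitochondria and the endoplasmic reticulum, read 8.96, 8.87 and 8.74 against 9.23, 9.41 and 9.40. It rose 1.41-fold (0.49, SE 0.08, adjusted p = 0.0091). IFI35, a leucine zipper protein that pairs with NMI, went from 6.85, 6.87 and 6.94 to 7.41, 7.50 and 7.29. Here too the groups were apart, with a rise of 1.43-fold (0.51, SE 0.07, adjusted p = 0.0048). IFI44L showed the largest fall of the list, from 6.03, 5.69 and 5.71 to 4.89, 5.08 and 5.05. That was 1.74-fold lower (−0.80, SE 0.11, adjusted p = 0.0049), at a dim probeset. Its group means, 5.809 in the parental line and 5.006 in the TRIM71 line, lay below the olfactory receptor level of 5.813. Its neighbour IFI44 was dimmer still, between 3.43 and 3.64 on all arrays, and differed by −0.11 (adjusted p = 0.252). IFI27 (0.04) and the apoptosis regulator XAF1 (0.02, negative with quantile normalization) were dim and overlapped.

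The 4 genes of the list that serve peptide supply to MHC class I, which interferon gamma raises, did not pass. TAP1, a subunit of the peptide transporter, stood at 8.42, 8.53 and 8.50 against 8.32, 8.35 and 8.29. TRIM71 arrays were all lower, by 0.17 (SE 0.05, adjusted p = 0.079), and the call was made in 5 of 20 alternative settings. The immunoproteasome subunits PSMB8 (−0.01) and PSMB9 (−0.11) were dim, and B2M, the light chain of MHC class I, differed by 0.10 (adjusted p = 0.520). GBP2, a guanylate-binding GTPase, differed by −0.13 at its brighter probeset and 0.06 at the other, both dim.

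Position was not used in choosing the genes, and 24 of the 42 fell into 9 chromosomal clusters with at most 3 other protein-coding genes between neighbours. Over the 22 pairs, the within-array difference between the genes of a pair was separate between groups for 12, and the share among gene pairs in general was not computed. Pairs of one cluster share genes and are not independent, and each pair named next holds a gene already called. HERC5 exceeded HERC6 in change by 0.62, IFIT1 exceeded IFIT5 by 0.70, OAS3 lay 0.68 below OAS1, IFI44L lay 0.70 below IFI44 and SAMD9 exceeded SAMD9L by 0.57 on the log2 scale. IFITM2 and IFITM3 overlapped in this measure (difference 0.30). A two-sided exact permutation test gave p = 0.1 for each of the 12 pairs (0.183 adjusted over 22 pairs), the smallest that 3 against 3 arrays allow, so no pair could reach the threshold. Dim probesets understate changes, which bears on IFI44, OAS1 and SAMD9L.

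**Figure D3:**
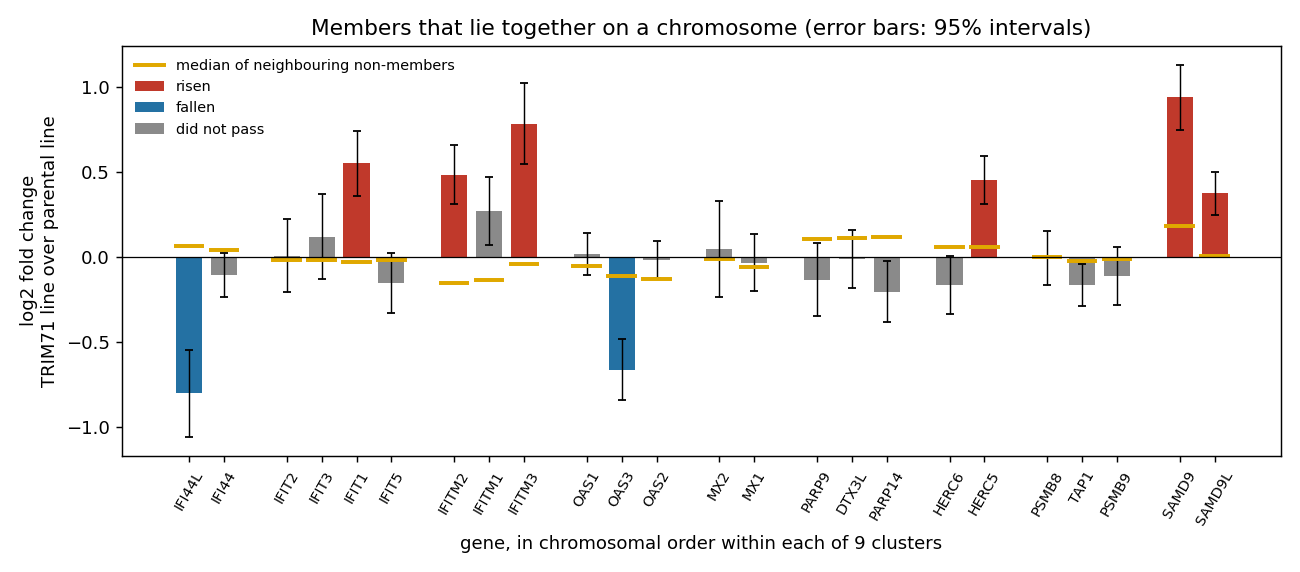
Log2 fold change (bars, TRIM71 line over parental line, with 95% intervals) of the 24 genes that lie together on a chromosome, in order within 9 clusters, and the median change of neighbouring genes outside the list (yellow lines). In some clusters a single gene was called, such as OAS3 at −0.66 beside OAS1 and OAS2 near 0, all of them dim. Other clusters held more called genes or none. Neighbour medians stay between −0.16 and 0.18.

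The rest of the interferon pathway was taken from 6 further lists and 3 constitutive proteasome subunits. Of 16 interferon genes measured, 0 rose and 0 fell by limma, and 0 had an unadjusted p under 0.05; 15 of the 16 were dim, IFNB1 between 3.54 and 3.65 on all arrays. Of 10 receptor and JAK-STAT genes, none of them dim, 1 rose and 2 fell (30.0% called beside 22.2% of all genes and 31.6% of all brighter genes), with JAK1, a kinase on every interferon receptor, at 0.20 (adjusted p = 0.030). The fallen genes were IL10RB, a subunit of the type III interferon receptor (9.0 ± 0.06 to 8.50 ± 0.03, −0.50, adjusted p = 0.0020), and IFNGR2, a subunit of the interferon gamma receptor (9.13 ± 0.03 to 8.77 ± 0.09, −0.36, adjusted p = 0.010). These lie in one cluster of 4 receptor genes on chromosome 21 with IFNAR2 (−0.20, adjusted p = 0.168) and IFNAR1 (−0.16, adjusted p = 0.313), the subunits of the type I receptor. All 4 values were negative, and the part of position was not tested.

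Negative regulators of the pathway held 4 risen and 2 fallen genes of 11, where 10.0% of all genes rose and 12.2% fell. Of the 11, 9 were brighter, and among all brighter genes 31.6% were called in either direction. IRF2, a repressor at ISREs, rose from 8.46, 8.40 and 8.46 to 8.98, 8.99 and 8.98 (0.55, SE 0.04, adjusted p = 0.00094), and PIAS1, an inhibitor of STAT signalling, rose by 0.33 (adjusted p = 0.0055). The phosphatases PTPN6 (−0.28, adjusted p = 0.014) and PTPN11 (−0.17, adjusted p = 0.046) fell. SOCS1 (−0.06) and SOCS3 (−0.05), feedback inhibitors that interferon induces, were dim and did not pass. Of 22 sensors and inducers 2 rose and 6 fell, and 13 of the 22 were brighter. The calls made up 36.4%, beside 22.2% of all genes and 31.6% of all brighter genes. The kinase TBK1 (0.29, adjusted p = 0.014) and the RNA sensor RIGI (0.38, adjusted p = 0.041) were higher, and the kinase IKBKE (−0.42, adjusted p = 0.0065) and TRIM25, a ubiquitin ligase in RIGI signalling (−0.36, adjusted p = 0.0051), were lower.

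Of 55 further interferon-stimulated genes 5 rose and 7 fell, 21.8% called beside 22.2% of all genes, with a median of −0.01. The DNA sensor IFI16 had the largest change (6.08 ± 0.03 to 8.86 ± 0.09, 2.78, adjusted p = 2.4e-05), and PNPT1, a mitochondrial exoribonuclease on chromosome 2, rose by 0.39. IFI30, a lysosomal thiol reductase that prepares antigens, fell from 10.62 ± 0.09 to 9.41 ± 0.09 (−1.21, adjusted p = 0.00036), and TRIM14, an adaptor of MAVS signalling, fell by 0.56 on the log2 scale. Of 11 further genes of MHC class I loading 1 rose and 2 fell, and 9 of the 11 were brighter. The calls made up 27.3%, beside 22.2% of all genes and 31.6% of all brighter genes. The proteasome activator PSME1 was at 0.18 (adjusted p = 0.043). TAPBP, or tapasin, fell by 0.44 and the transporter subunit TAP2 by 0.27 at their brightest probesets, while 2 dimmer probesets of each did not pass (−0.27 and −0.18, and −0.50 and −0.23). The proteasome subunits that PSMB8 and PSMB9 replace, with their relative PSMB7, did not pass either, with PSMB5 at −0.15, PSMB6 at 0.01 and PSMB7 at −0.04.

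**Figure D4:**
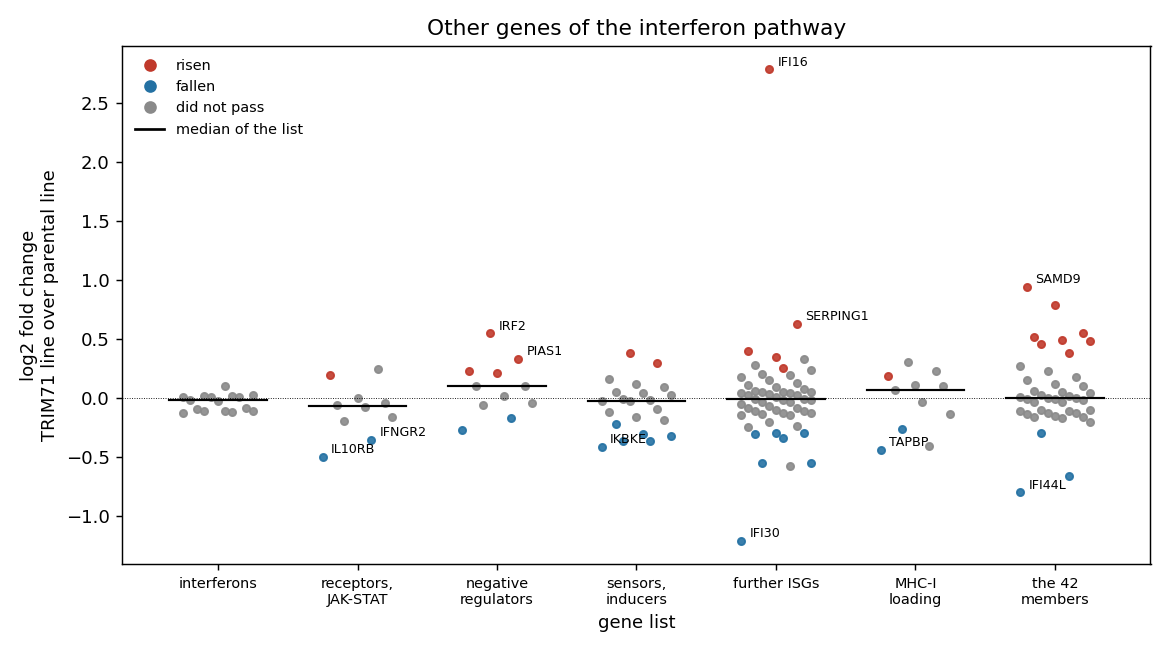
Log2 fold change (TRIM71 line over parental line) of every measured gene in 6 lists of the interferon pathway and in the 42 genes described here, red where risen, blue where fallen and grey where the test was not passed, with the list median as a line. Medians stay between −0.07 and 0.10, and IFI16 at 2.78 and IFI30 at −1.21 lie outside the range of the 42 genes.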

How the data were processed

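Log2 expression values of 6 arrays, 1 column per array, were used as the authors deposited them. They were made with RMA in affy, per the submitters' processing notes, with versions, array annotation and build not given in the sources used here. RMA sets probe intensities to a common distribution, so a change in total mRNA per cell is not visible. Groups and replicate numbers came from the sample titles. Of 32321 probesets 19158 had 1 gene symbol in the annotation table for the array, 1388 several and 11775 none. Of the first, 19128 had their gene ID in RefSeq's table for GRCh38.p14.

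All 32321 probesets entered one fit of the group difference, by lmFit and eBayes of limma 3.58.1 under R 4.3.3 (no trend, not robust, no filter), with Benjamini-Hochberg adjustment over all of them and a threshold of 0.05. The code was tested on simulated data with planted changes of 1.5-fold and more, so smaller changes were not covered. Values are mean ± SD, n = 3. Intervals are 95% intervals from the fit. A gene was dim where both group means were below the median of all probesets. The number of arrays limits the precision.

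The genes and lists were chosen with earlier results of these data known, so no test was made over a list. Every called gene of the list was named, the others by role, and up to 4 called genes of smallest adjusted p per further list (at most 2 per direction where both were called). Uncalled genes of further lists (IFNB1, IFNAR1, IFNAR2, SOCS1, SOCS3 and the constitutive proteasome subunits) and neighbours of SAMD9 were named outside this rule, after their values were seen.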

Additional observations from a re-analysis of the deposited data

How the results depend on the processing

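Each of 20 alternatives was run on the 42 genes. With each array left out in turn, 8 rose and 3 fell as before, and all 11 called genes were among them. Under the other settings 2 to 10 rose and 2 to 4 fell. Tested against a fold of 1.2, 2 rose, and at an adjusted p under 0.01 8 rose and 2 fell, without USP18. Over all 18404 genes the latter threshold gave 792 risen and 1106 fallen. The filter at the median brightness left 19 genes and set their median log2 fold change to 0.10, beside −0.01 for all 11343 genes that it left. It removed IFITM3, SAMD9L, OAS3 and IFI44L, and IFITM1, IRF9 and TAP1 then passed. A lower filter, at the 95th percentile of olfactory receptor probesets (5.813), left 27 genes. It kept 9 of the 11 calls and removed SAMD9L and IFI44L. Left-out arrays moved the median of the list from −0.03 to 0.01. None of the 11 called genes changed sign under any alternative run for it.

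Of the 31 other genes 13 changed sign somewhere, and the cause was not tested. In the main fit the one furthest from 0 was IRF7 at −0.10, which turned to 0.0085 without TRIM71 replicate 2. With array weights DTX3L was at 0.022, MX2 at −0.0033 and XAF1 at −0.0098, and with quantile normalization IFIT2 was at −0.012, OAS1 at −0.0026 and XAF1 at −0.0015. Over the 6 left-out arrays DTX3L ran from −0.049 to 0.060, IFI27 from −0.042 to 0.11, IFIT2 from −0.057 to 0.098, IRF7 from −0.21 to 0.0085, ISG15 from −0.12 to 0.026, ISG20 from −0.019 to 0.13, MX1 from −0.099 to 0.0075, MX2 from −0.079 to 0.15, OAS1 from −0.014 to 0.042, PSMB8 from −0.053 to 0.039, RSAD2 from −0.054 to 0.030, TRIM22 from −0.065 to 0.024 and XAF1 from −0.061 to 0.13.

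The replicate number as a block kept 8 risen and 3 fallen, while over all genes it moved 1848 risen to 1019 and 2244 fallen to 1371. Deviations of same-numbered arrays correlated at 0.07, −0.19 and 0.11 and not every array correlated best with its own number, so the numbers were not taken as pairs.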
